A study of Homo sapiens with 6 samples.

Results

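The unfolded protein response is the set of pathways by which a cell adjusts its endoplasmic reticulum (ER) when unfolded proteins gather there. Followed here are 10 genes of its ATF6 and IRE1-XBP1 branches, taken by name as the rows of the count table called ATF6, XBP1, ERN1, HERPUD1, SEL1L, SDF2L1, EDEM1, PDIA4, CRELD2 and MANF. All 10 were found, each in 1 row, among 32078 named genes, and all 10 passed the filter on low counts. Poly(A) RNA of PANC-1, an established human pancreatic carcinoma cell line, was sequenced in 6 libraries. The control group (n = 3) has the treatment label none, and the EV group (n = 3) is labelled as treated with CAF-derived Evs, extracellular vesicles shed by cancer-associated fibroblasts. The labels name no genotype. Dose and duration of the vesicle treatment were not given in the sources used here. Protocol text mentions vesicle pretreatment for all 6 libraries alike, so the assignment to groups comes from titles and treatment labels. The line is a single cell line, and nothing says that replicates were separate cultures, so p-values measure only the spread between libraries, which may be technical.

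As background, 3 ER membrane proteins start the response. ERN1 encodes IRE1, a kinase and endoribonuclease that cuts XBP1 mRNA so that it is spliced into the form encoding an active transcription factor. ATF6 moves to the Golgi, where proteases release its cytosolic part as a transcription factor, and the third sensor, PERK (EIF2AK3), slows translation and raises ATF4. ATF6 and spliced XBP1 act on promoters of genes for ER chaperones and for ER-associated degradation, which returns misfolded proteins to the cytosol and the proteasome. A well-known control element is the ER stress response element, whose CCAAT part is bound by the factor NF-Y and whose CCACG part is bound by ATF6 or XBP1. Counts per gene hold neither the splicing of XBP1 nor the cleavage of ATF6, so only mRNA levels are described.

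Promoter stretches are shown for the 4 of the 10 genes that hold an exact ER stress response element. Of these genes, XBP1 and HERPUD1 fell and SDF2L1 and CRELD2 rose, and the part of the element in these changes was not tested. The stretches are the 250 bases before the RefSeq gene start (most upstream start where the table has more than 1), in build GRCh38.p14, 5′ to 3′ on the strand of the gene. The build named for the deposited counts is hg19, and no coordinate was carried between the builds. Capitals mark the element of the first kind (ERSE: CCAAT, then 9 bases of any kind, then CCACG) in XBP1 (chr22:28800570-28800819, minus strand) and CRELD2 (chr22:49918384-49918633, plus strand). They mark the second kind (ERSE-II: ATTGG, then 1 base of any kind, then CCACG) in HERPUD1 (chr16:56931892-56932141, plus strand) and SDF2L1 (chr22:21642052-21642301, plus strand). In HERPUD1 the capitals nearer the left end mark a C/EBP-ATF type site (TGATGNAA, read on the other strand), the kind of site that ATF4 is known to bind.
XBP1: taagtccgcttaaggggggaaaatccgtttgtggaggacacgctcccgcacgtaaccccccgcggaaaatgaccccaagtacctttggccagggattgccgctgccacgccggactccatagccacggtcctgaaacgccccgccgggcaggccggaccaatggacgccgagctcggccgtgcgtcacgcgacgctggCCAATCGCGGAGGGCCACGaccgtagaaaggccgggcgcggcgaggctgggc
CRELD2: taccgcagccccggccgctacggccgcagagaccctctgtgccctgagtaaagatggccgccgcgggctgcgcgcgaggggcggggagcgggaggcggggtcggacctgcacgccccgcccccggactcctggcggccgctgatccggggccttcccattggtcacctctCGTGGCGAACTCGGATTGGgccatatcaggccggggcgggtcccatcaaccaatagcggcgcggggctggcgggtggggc
HERPUD1: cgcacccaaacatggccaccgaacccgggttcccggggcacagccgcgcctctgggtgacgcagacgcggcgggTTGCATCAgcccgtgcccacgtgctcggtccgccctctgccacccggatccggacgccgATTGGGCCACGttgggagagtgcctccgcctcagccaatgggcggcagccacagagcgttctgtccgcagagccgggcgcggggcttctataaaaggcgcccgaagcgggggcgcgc
SDF2L1: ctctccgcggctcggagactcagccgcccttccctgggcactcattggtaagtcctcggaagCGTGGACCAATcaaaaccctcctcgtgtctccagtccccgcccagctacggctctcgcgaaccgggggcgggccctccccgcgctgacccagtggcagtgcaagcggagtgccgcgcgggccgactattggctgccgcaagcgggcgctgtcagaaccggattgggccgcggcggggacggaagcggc

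Searched on both strands, an exact ERSE was found in 0.074% and an exact ERSE-II in 0.0513% of 35116 RefSeq promoter windows of this length. Each was found in 2 of the 10 genes. The 10 were chosen as genes of the branches that act through such elements, so the comparison with all windows is no test. In XBP1 the ERSE ran from 52 to 34 bases before the start, and in CRELD2 from 80 to 62 bases before it, on the other strand. In HERPUD1 the ERSE-II ran from 117 to 107 bases before the start, and in SDF2L1 from 188 to 178 bases before it, on the other strand. The C/EBP-ATF type letters were in 3.14% of all windows and, of the 10 genes, in HERPUD1 alone. The 8 letters TGACGTGG, the core of the XBP1-type element, were in 0 of the 10 windows and in 0.612% of all. The plain CCAAT box, which lies within ERSE and ERSE-II, was in 9 of the 10 windows, all but that of ATF6, against 32.0% of all. A match describes letters, not binding.

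In the EV libraries the mRNAs of ERN1, XBP1 and ATF6 were lower, as were HERPUD1 and EDEM1 of ER-associated degradation. SDF2L1 and CRELD2, whose proteins lie in the ER lumen, were higher. The calls did not sort by place in the cell: PDIA4 and MANF, also of the lumen, were not called. Among listed ER chaperones and folding enzymes outside the 10 genes, 3 of 27 rose and 6 fell, with HSPA5 lower (-0.36). The EDEM1 and CRELD2 calls were each lost when single libraries were left out. Of the 10 genes, 5 fell (XBP1, ERN1, HERPUD1, ATF6 and EDEM1) and 2 rose (SDF2L1 and CRELD2) at an adjusted p under 0.05 in edgeR's quasi-likelihood test. SEL1L, PDIA4 and MANF did not pass, and the median log2 fold change of the 10 was -0.17, against -0.01 for all tested genes. Across all 14670 tested genes 40.9% were called, 20.2% higher and 20.7% lower, so a call alone is common in this comparison. The size of change is less common: XBP1, ERN1, HERPUD1 and SDF2L1 were called and changed at least 1.5-fold, as were 11.1% of all tested genes (3.67% higher, 7.43% lower). The libraries of the groups did not overlap for 9 of the 10 genes, against 50.6% of all tested genes (25.1% with EV higher and 25.5% with EV lower). The 10 genes were chosen with earlier results of these data known, so these shares describe and do not test. Values are CPM, the share of a library's counts scaled by TMM factors for composition. Fold changes are EV over control. In bulk RNA, fewer cells of a type and less RNA per cell cannot be told apart.

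**Figure D1:**
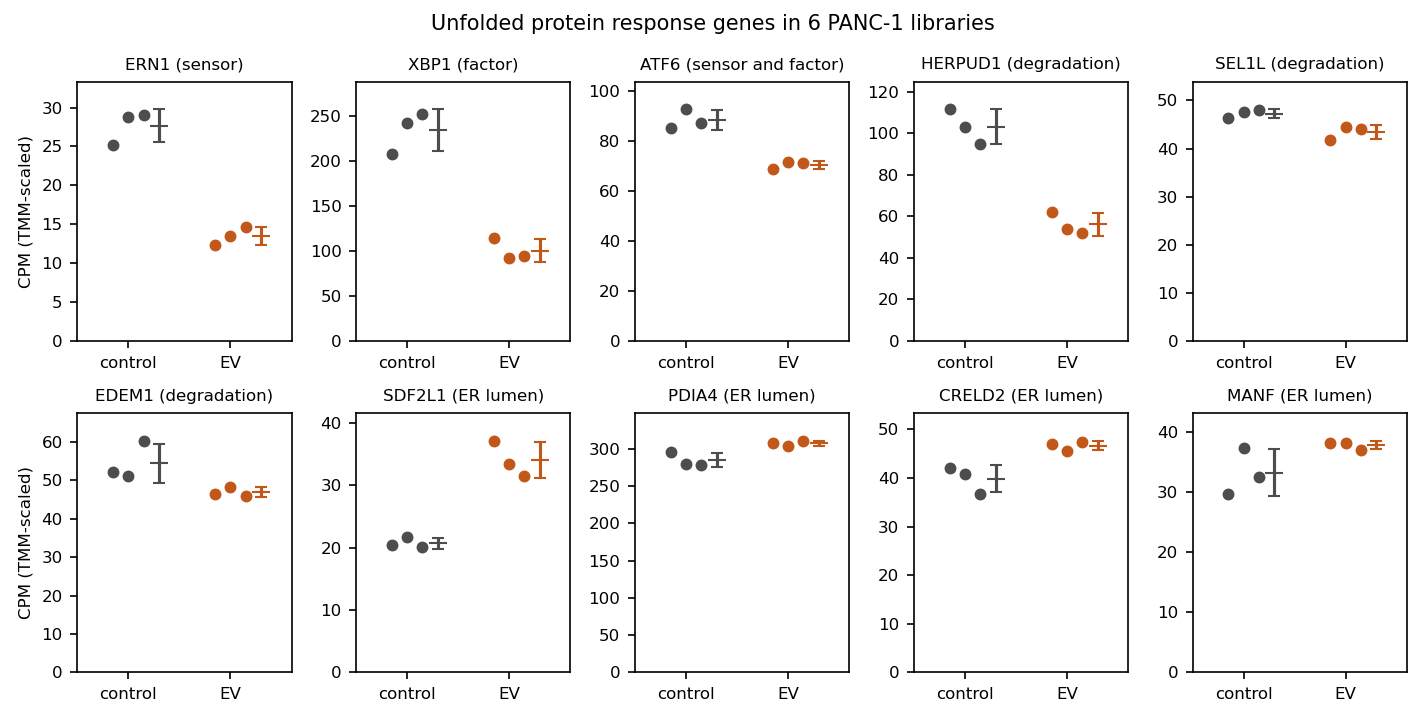
Each panel plots 1 gene in TMM-scaled CPM (vertical axis, from 0) for 3 control and 3 EV libraries as points, with the group mean and SD to the right. ERN1, XBP1, ATF6 and HERPUD1 lie lower in all 3 EV libraries, SDF2L1 lies higher in all 3, and the groups overlap for MANF alone.

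ERN1, the gene of the IRE1 sensor, was at 25.2, 28.7 and 29.0 CPM in control libraries 1 to 3 and at 12.4, 13.5 and 14.7 CPM in EV libraries 1 to 3. Every EV library lay well below every control. The control mean was 27.7 ± 2.11 CPM and the EV mean 13.5 ± 1.14 CPM (SD, n = 3 each). The log2 fold change was -1.04 ± 0.09 (SE; edgeR adjusted p = 5.52e-08), or 2.05-fold lower. A called change of at least 2-fold was seen in 3.81% of all tested genes, and a called fall of that size in 2.95%, and ERN1 and XBP1 were the only such genes among the 10.

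XBP1, the mRNA that IRE1 cuts, had the largest change of the 10. It was at 208, 243 and 252 CPM in the control libraries and at 115, 91.9 and 94.9 CPM in the EV libraries. The highest EV library was thus still far below the lowest control. The log2 fold change was -1.22 ± 0.08 (edgeR adjusted p = 1.64e-09), or 2.33-fold lower, and XBP1 ranked 227 from the lowest of the 14670 tested genes. Spliced and unspliced XBP1 mRNA are counted together in this value.

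ATF6 changed less than these. Its levels were 85.3, 92.8 and 87.3 CPM in the controls and 68.7, 71.8 and 71.2 CPM in the EV libraries, again without overlap. EV over control, this was a log2 fold change of -0.33 ± 0.06 (edgeR adjusted p = 0.000274), which puts the EV level at 0.798 of the control level. Its paralogue ATF6B, a related membrane factor, was at 89.0 ± 1.99 against 104 ± 3.41 CPM (-0.22 ± 0.06, adjusted p = 0.00497). Within a library the count ratio of ATF6 to ATF6B was 0.853 ± 0.0384 in the controls and 0.793 ± 0.00580 in the EV group.

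Of the 3 genes that act in ER-associated degradation, HERPUD1 fell most. HERPUD1 encodes a ubiquitin-like membrane protein of the degradation complex. It was at 112, 103 and 94.9 CPM in the controls and at 62.3, 54.0 and 52.2 CPM in the EV libraries, so the groups lay far apart. Its log2 fold change was -0.88 ± 0.07 (edgeR adjusted p = 3.74e-08), or 1.83-fold lower.

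EDEM1 encodes a mannosidase-like protein that directs misfolded glycoproteins to degradation. It was at 52.1, 51.0 and 60.3 CPM in the controls and at 46.4, 48.4 and 46.0 CPM in the EV libraries. The groups did not overlap, but control library 3 stood above the rest of the group. The log2 fold change was -0.22 ± 0.07 (edgeR adjusted p = 0.0202). The call was lost without control replicate 3, with a log2 fold change of -0.14 (adjusted p = 0.132). It was also lost without EV replicate 1 (-0.20, adjusted p = 0.0737) and without EV replicate 3 (-0.20, adjusted p = 0.0833). On the opposite strand, the gene AC026202.3 shares 653 exon bases with EDEM1 in GENCODE v29. It has no row of its own in the count table, so its level is unknown here.

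SEL1L encodes the adaptor that holds the ubiquitin ligase SYVN1 in the degradation complex. It was at 46.3, 47.5 and 48.0 CPM in the controls and at 41.8, 44.5 and 44.2 CPM in the EV libraries. All EV libraries were lower than all controls, but the difference did not pass (-0.12 ± 0.06, edgeR adjusted p = 0.139). The 95% interval of its log2 fold change ran from -0.26 to 0.01.

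SDF2L1 rose where ERN1, XBP1 and ATF6 fell. It encodes an ER-resident partner of BiP (HSPA5) and its J-domain co-chaperones. It was at 20.4, 21.6 and 20.1 CPM in the controls and at 37.1, 33.4 and 31.4 CPM in the EV libraries. Each EV library was well above each control. Its log2 fold change was 0.72 ± 0.08 (edgeR adjusted p = 1.39e-06), or 1.64-fold higher, and SDF2L1 ranked 395 from the highest of the tested genes.

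CRELD2, an ER-resident EGF-domain protein induced by ER stress, rose by a smaller amount. It was at 42.0, 40.8 and 36.8 CPM in the controls and at 47.0, 45.6 and 47.5 CPM in the EV libraries. The groups did not overlap, and control library 3 was the lowest of all. The log2 fold change was 0.23 ± 0.07 (edgeR adjusted p = 0.0124), and without control replicate 3 the call was lost (0.17, adjusted p = 0.0632). CRELD2 shares 168 exon bases with ALG12 on the opposite strand in GENCODE v29, and the sources used here do not say if reads were assigned by strand. ALG12 held 228 to 312 counts in a library, against at least 980 for CRELD2.

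PDIA4, a protein disulfide isomerase that forms and rearranges disulfide bonds, was at 296, 280.3 and 279 CPM in the controls and at 308, 305 and 311 CPM in the EV libraries. The EV libraries were slightly higher without overlap. The difference did not pass (0.11 ± 0.05, edgeR adjusted p = 0.118), and its 95% interval ran from -0.01 to 0.22 on the log2 scale.

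MANF, a secreted and ER-resident trophic factor that binds BiP, was at 29.7, 37.4 and 32.5 CPM in the controls and at 38.3, 38.3 and 37.1 CPM in the EV libraries. Control library 2 reached the EV range, the only overlap among the 10 genes. The difference did not pass (0.19 ± 0.08, edgeR adjusted p = 0.0697). Without control replicate 2 it passed, at 0.28 (adjusted p = 0.00863).

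**Figure D2:**
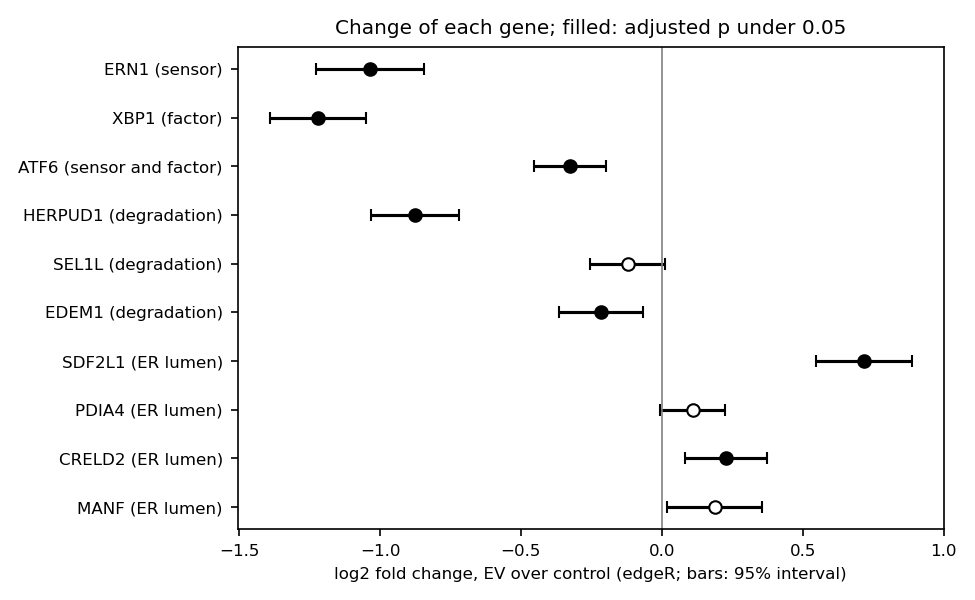
The horizontal axis is the log2 fold change of EV over control with its 95% interval, and the vertical axis lists the 10 genes by role, with filled points for genes called by edgeR. ERN1, XBP1, ATF6 and HERPUD1 lie between -1.22 and -0.33, and SDF2L1 lies at 0.72.

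The genes differed from each other in how tightly their replicates agreed. In the controls the coefficient of variation ran from 1.85% for SEL1L to 11.7% for MANF, and in the EV group from 1.06% for PDIA4 to 12.3% for XBP1. In the EV group, library 1 was the highest of the 3 for XBP1, HERPUD1 and SDF2L1 and the lowest for ERN1, ATF6 and SEL1L. The closest pair of profiles over the 6 libraries was PDIA4 with CRELD2. After each gene was centred on its own mean, their log2 values differed by a root mean square of 0.07. SEL1L with EDEM1 came next, at 0.08.

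Count ratios within a library, which no scaling factor enters, show how far 2 genes moved relative to each other, not which of them moved. The pairs were chosen after the values were seen, so no test is given. The ratio of SDF2L1 to HERPUD1 counts was 0.182, 0.210 and 0.211 in control libraries 1 to 3 and 0.595, 0.618 and 0.602 in EV libraries 1 to 3, 3.01 times higher in the mean. The ratio of PDIA4 to XBP1 counts was 1.42, 1.16 and 1.10 in the controls and 2.68, 3.31 and 3.28 in the EV libraries, 2.52 times higher. Both ratios were higher in every EV library than in any control.

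**Figure D3:**
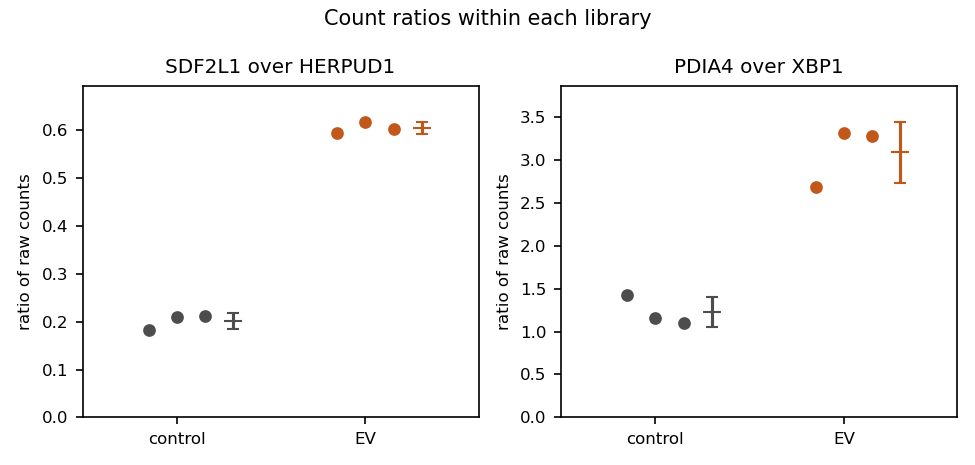
The vertical axis is the ratio of raw counts of 2 genes within a library, from 0, for 3 control and 3 EV libraries as points, with mean and SD. SDF2L1 over HERPUD1 was 0.201 ± 0.0164 in the controls and 0.605 ± 0.0119 in the EV group, and PDIA4 over XBP1 was 1.23 ± 0.172 and 3.09 ± 0.355.

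Levels can be set against each other only per length, so CPM were divided by the exon length of each gene in GENCODE v29 (all exons merged), which assumes that all exons are used. On this scale of CPM per kilobase, PDIA4 (87.0 ± 2.96) and XBP1 (77.4 ± 7.69) had the highest levels in the controls. HERPUD1 (20.0 ± 1.62), SDF2L1 (18.8 ± 0.771), MANF (13.9 ± 1.64) and ATF6 (11.2 ± 0.491) followed. EDEM1 (8.06 ± 0.749), CRELD2 (7.72 ± 0.527), SEL1L (4.95 ± 0.0915) and ERN1 (2.55 ± 0.194) were lowest. HERPUD1 and SDF2L1 did not differ beyond their spread in the controls, nor did EDEM1 and CRELD2. This spread is that between libraries and holds no error of the lengths, so the order of the genes may depend on the lengths used. In the EV group PDIA4 was at 93.9 ± 0.997 and XBP1 at 33.2 ± 4.10 CPM per kilobase, next to SDF2L1 at 30.9 ± 2.63, which did not differ from XBP1 beyond the spread. MANF was at 15.9 ± 0.288, HERPUD1 at 10.9 ± 1.05 and CRELD2 at 9.04 ± 0.193. ATF6 was at 8.95 ± 0.210, within the spread of CRELD2, and EDEM1 at 6.94 ± 0.187. SEL1L (4.55 ± 0.151) and ERN1 (1.24 ± 0.105) were again the lowest.

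For ATF6, XBP1 and HERPUD1, and for no other of the 10, the genes of most similar profile were found among the 9020 tested genes that averaged 10 CPM or more, as the root mean square difference of centred log2 CPM over the 6 libraries. Nearest to XBP1 were AREG (0.08), STX12 (0.09) and PTPRH (0.10). Nearest to HERPUD1 were C1RL (0.07), DEPP1 (0.07) and PALM2AKAP2 (0.08). Nearest to ATF6 were TRIM55 (0.02), ZKSCAN5 (0.02) and AATF (0.02).

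The other listed sensors and regulators were mixed: beside ATF6, XBP1 and ERN1, 3 of 12 tested genes rose and 3 fell. The remaining 6 of the 12 were not called. With ATF6, XBP1 and ERN1 included, 60% of the tested genes in the list were called, against 40.9% of all tested genes. These 3 genes, all called, raise that share. CREB3L1, an ATF6-like membrane factor of secretory cells, was at 6.39 ± 0.975 against 13.9 ± 2.31 CPM (-1.11 ± 0.13, adjusted p = 3e-06). MBTPS1, a protease of the pair that releases ATF6, was lower, at -0.17 ± 0.05 on the log2 scale (adjusted p = 0.0156) and was not called without EV replicate 2 (-0.16, adjusted p = 0.083). ATF6B is given above. RTCB, the ligase that joins the cut XBP1 mRNA, rose (0.27 ± 0.06, adjusted p = 0.000685), as did the NF-Y subunit gene NFYB (0.28 ± 0.07, adjusted p = 0.00336). EIF2AK3, the PERK gene, was at 12.2 ± 0.746 against 9.87 ± 0.705 CPM (0.32 ± 0.10, adjusted p = 0.0187). Its call was lost without control replicate 2 (adjusted p = 0.0516), without control replicate 3 (adjusted p = 0.0578) and without EV replicate 3 (adjusted p = 0.0672). ERN2, the paralogue of ERN1, was too low to test.

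ER chaperones and folding enzymes outside the 10 genes were mostly not called: 3 of 27 rose and 6 fell, with a median log2 fold change of -0.03 against -0.01 for all tested genes. With its members of the 10 included, 35.5% of the list was called, against 40.9% of all tested genes. HSPA5, which encodes BiP, the main ER chaperone and a classical target of ATF6, was at 495 ± 23.4 against 635 ± 10.9 CPM (-0.36 ± 0.06, adjusted p = 5.4e-05). ERO1A, the oxidase that recharges disulfide isomerases, was lower (-0.24 ± 0.06, adjusted p = 0.00576), and CDNF, the paralogue of MANF, fell from a mean of 1.23 CPM (-1.18 ± 0.32, adjusted p = 0.00585). Without control replicate 2, CDNF was not called (-0.91, adjusted p = 0.0511). TXNDC5, a disulfide isomerase, rose (0.72 ± 0.09, adjusted p = 5.51e-06), as did the BiP co-chaperone DNAJB11 (0.35 ± 0.06, adjusted p = 0.000206) and SDF2, the paralogue of SDF2L1 (0.26 ± 0.07, adjusted p = 0.00462). HSP90B1, the ER form of HSP90, had means of 359 ± 8.26 against 392 ± 11.3 CPM, short of the threshold (-0.13 ± 0.05, adjusted p = 0.0718), though it passed with upper-quartile scaling (adjusted p = 0.0381) or a filter of 1 CPM in 3 libraries (adjusted p = 0.0494). DNAJB9, a target of spliced XBP1, was at 9.74 ± 0.730 against 9.56 ± 0.839 CPM (0.03 ± 0.11, adjusted p = 0.873).

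In the list of ER-associated degradation, 7 of 28 tested genes outside the 10 rose and 3 fell, with a median of 0.07. With its members of the 10 included, 38.7% of the list was called, near the 40.9% of all tested genes. The lower ones were HERPUD2 (-0.40 ± 0.06, adjusted p = 6.36e-05), SYVN1, the ligase that SEL1L holds (-0.36 ± 0.07, adjusted p = 0.000236), and the lectin OS9 (-0.15 ± 0.06, adjusted p = 0.0446), whose call was lost in 12 of 16 other settings. An antisense gene, HERPUD2-AS1, is in the table too. Its overlap with HERPUD2 was not measured, so whether its reads enter the HERPUD2 counts is unknown here. Higher were NPLOC4 (0.27 ± 0.06, adjusted p = 0.000716) and VCP (0.24 ± 0.06, adjusted p = 0.0021), which pull substrates out of the membrane, and UBE2G2, a ubiquitin-conjugating enzyme (0.29 ± 0.06, adjusted p = 0.00106). Genes of ER translocation and export, many of which spliced XBP1 is known to induce, rose in 15 and fell in 4 of 38, with a median of 0.11. That is 50% called, against 40.9% of all tested genes (20.2% higher and 20.7% lower). SEC23A, a coat protein of ER export (0.51 ± 0.06), SSR1 of the translocon-associated complex (0.39 ± 0.06) and the channel subunit gene SEC61B (0.36 ± 0.06) had the lowest adjusted p of the higher ones (4.83e-06, 2.77e-05 and 0.000118). SEC16A (-0.29 ± 0.07, adjusted p = 0.00167), SEC63 (-0.25 ± 0.06, adjusted p = 0.00184) and GOLGB1 (-0.26 ± 0.07, adjusted p = 0.00659) fell.

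**Figure D4:**
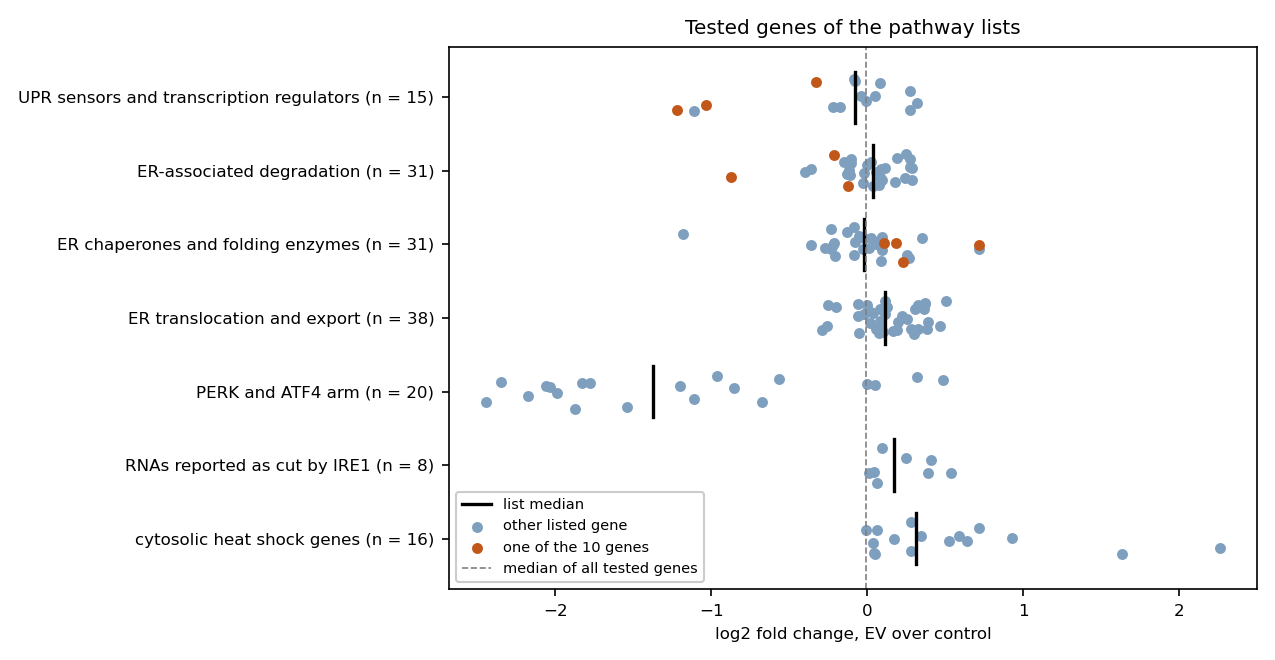
The horizontal axis is the log2 fold change of EV over control, and each row is a gene list with its tested genes as points, the 10 genes in orange, the list median as a black bar and the median of all tested genes as a dashed line. The PERK and ATF4 arm lies furthest to the left (median -1.37), and XBP1 and ERN1 lie apart from most other sensors and regulators.

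The arm of PERK and ATF4 had 16 lower and 2 higher of 20 tested genes, with a median log2 fold change of -1.37. That is 90% called, against 40.9% of all tested genes. Counts do not show the activity of PERK, and its part in these changes was not tested. ATF4, its transcription factor, was at 348 ± 47.3 against 629.6 ± 29.0 CPM (-0.86 ± 0.08, adjusted p = 6.08e-08), and DDIT3, the gene of CHOP, was at 7.66 ± 1.248 against 30.5 ± 2.57 CPM (-1.99 ± 0.11, adjusted p = 8.98e-11). The lower genes of lowest adjusted p were TRIB3, a pseudokinase (-2.35 ± 0.09, adjusted p = 1.2e-12), CTH, which makes cysteine from cystathionine (-2.06 ± 0.09, adjusted p = 5.77e-12), and SESN2, a stress-induced regulator of mTORC1 (-2.03 ± 0.09, adjusted p = 6.93e-12). The higher ones were EIF2S1, the gene of the eIF2 alpha subunit that PERK phosphorylates (0.48 ± 0.06, adjusted p = 2.51e-06), and EIF2AK3. Of 9 RNAs reported elsewhere as cut by IRE1 itself, 8 were tested. In that list 3 rose, PMP22 (0.54 ± 0.13, adjusted p = 0.00226), CD59 (0.25 ± 0.06, adjusted p = 0.00329) and SCARA3 (0.41 ± 0.11, adjusted p = 0.00611). This is 37.5% of the 8 called, near the 40.9% of all tested genes. In edgeR, DESeq2 and limma-voom 0 fell, also 0 at an unadjusted edgeR p under 0.05. Their median was 0.17. These lists were drawn up with earlier results of these data known, so their counts describe and do not test.

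Among paralogues of the 10 genes, 10 of 12 were tested, 1 rose and 4 fell. That is 50% called, against 40.9% of all tested genes. Beside those named above, SEL1L3 fell (-0.29 ± 0.10, adjusted p = 0.0259), a call lost without control replicate 2 (adjusted p = 0.0858), EV replicate 1 (adjusted p = 0.166) or EV replicate 2 (adjusted p = 0.0582). CRELD1 (-0.27 ± 0.23), PDIA3 (-0.09 ± 0.06), PDIA6 (0.09 ± 0.05), EDEM2 (0.09 ± 0.08) and EDEM3 (0.03 ± 0.08) did not pass. SEL1L2 had 0 counts in all 6 libraries.

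Total counts ran from 21669757 to 27535620 per library. Of the carcinoma cell markers KRT8 and KRT18 were the most abundant and MUC1 (-1.35 ± 0.11) and KRT19 (-0.48 ± 0.06) fell. KRT7 was too low to test, at a mean of 0.279 CPM in the controls and 0.0831 CPM in the EV group. CDH1, EPCAM and KRT17 had 0 counts in all libraries. Whether 0 counts throughout, for these and the genes below, mean absent RNA or reads not assigned was not tested. The 13 matched of 14 listed fibroblast markers summed to 398 to 435 CPM in the controls and 389 to 432 CPM in the EV libraries, with DCN, LUM, POSTN and THY1 at 0 counts throughout, although single collagen genes were called (0.71 ± 0.07 for COL1A2, 1.62 ± 0.40 for COL5A1 and -0.61 ± 0.06 for COL6A3), as was ACTA2 (-0.91 ± 0.17). Of 14 listed markers of acinar cells, a cell type of high XBP1, 6 were matched in the table, and these summed to 0.362 CPM at most. The 8 matched of 12 listed immune cell markers summed to 24.9 to 34.1 against 49.4 to 56.0 CPM, nearly all of it SDC1, which epithelial cells also express, and the leukocyte gene PTPRC had 0 counts. Mitochondrially encoded genes summed to 7498 to 10582 against 7423 to 10400 CPM, with MT-ND3 (0.56 ± 0.07) and MT-ND2 (0.34 ± 0.09) higher and MT-ND6 (-0.35 ± 0.11) lower. The MT-ND6 call was lost without control replicate 3 (adjusted p = 0.172), EV replicate 2 (adjusted p = 0.0891) or EV replicate 3 (adjusted p = 0.102). Cytosolic heat shock genes, another protein folding response, moved with the groups: 10 of 16 rose. That is 62.5% called, against 40.9% of all tested genes. Among the higher ones were HSPA1A (1.63 ± 0.12) and HSPA1B (2.26 ± 0.17), near-identical genes whose reads can be split uncertainly, and DNAJA1 (0.64 ± 0.06). In edgeR, DESeq2 and limma-voom 0 of the 16 fell, also 0 at an unadjusted edgeR p under 0.05. The sum of the 16 was 9902 to 10732 against 12071 to 13047 CPM. Their part in the changes of the ER genes was not tested.

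The authors' deposited table holds all 10 genes, with fold changes given as control over EV. Of the q-values in the authors' deposited table, 7 were under 0.05 for these genes, and XBP1 (1.21) and ERN1 (1.02) were marked up, which means higher in the controls. It rests on the same libraries and is no independent support.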

How the data were processed

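The authors deposited raw counts per gene for 6 libraries. TopHat, RSEM and hg19 are named, per the submitters' processing notes, without versions or roles, and the annotation was not given in the sources used here. Features without a gene name (375 of 32453) held 0.0990% to 0.134% of a library's counts and were left out. The authors also deposited their own comparison, with group means and fold changes on a log2 scale, p-values and q-values.

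Differences in counts were assessed with edgeR 4.0.16 under R 4.3.3 (quasi-likelihood, TMM factors, filterByExpr, Benjamini-Hochberg over all tested genes, called at adjusted p under 0.05). Unless another tool is named, adjusted p-values are from that test. Each SE was obtained as the absolute log2 fold change over the root of its F statistic, and intervals are at 95%. On simulated counts for 14670 genes, 50 genes each were changed by 1.25-, 1.5-, 2- and 4-fold. Of these, 48%, 66%, 96% and 98% were called, in that order, and 15 of 14470 unchanged genes were called. Smaller changes were not simulated. The 200 changed genes were a smaller share of all genes than the 40.9% called in the data. Adjusted p-values depend on that share, so these rates need not hold for the data.

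The 10 genes and the lists were chosen with earlier results of these data known. Named were all 10 genes and their paralogues, up to 3 called genes per list and direction with the lowest adjusted p, 7 genes always named (HSPA5, HSP90B1, DNAJB9, EIF2AK3, ATF4, DDIT3, ATF6B) and the 3 nearest profiles of ATF6, XBP1 and HERPUD1. Promoter sequences are from RefSeq, GRCh38.p14, and all 10 genes matched by symbol. Alternatives were 3 scalings, 2 filters, each library left out, DESeq2 1.42.0, limma-voom (limma 3.58.1), a block for the replicate number, an adjusted p under 0.01 and a tested fold over 1.2 (glmTreat). No 2 libraries agreed within sampling noise.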

Additional observations from a re-analysis of the deposited data

How the results depend on the processing

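Over 16 alternatives, XBP1, ERN1, HERPUD1 and SDF2L1 kept their direction and their call, and none of the 10 genes turned its direction. With a tested fold over 1.2 (glmTreat), 892 genes were higher and 1253 lower in place of 2965 and 3036. Of the 10, 1 was then higher and 3 lower in place of 2 and 5, and ATF6 (-0.33, adjusted p = 0.217), EDEM1 (-0.22, adjusted p = 0.898) and CRELD2 (0.23, adjusted p = 0.842) were not called, since that test asks for a larger change. At an adjusted p under 0.01, EDEM1 (-0.22) and CRELD2 (0.23) were not called, which left 1 higher. Leaving out each library in turn gave 1 to 3 higher and 4 to 5 lower among the 10. Log2 fold changes then ran from -0.26 to -0.14 for EDEM1, 0.17 to 0.27 for CRELD2, 0.12 to 0.28 for MANF, -0.038 to 0.084 for DNAJB9 and -0.038 to 0.11 for EDEM3. These last 2, not called in any setting, changed sign. The cause of these differences was not tested.

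With the replicate number as a block, 2846 genes were higher and 2897 lower, and the 10 kept 2 higher and 5 lower. Deviations of same-numbered libraries correlated at -0.01, -0.005 and -0.006, so the numbers gave no sign of pairing. With glmTreat the lists had fewer calls, higher and lower: sensors and regulators 0 and 3 (from 3 and 6), chaperones 2 and 1 (from 5 and 6), degradation 0 and 2 (from 7 and 5), translocation 3 and 0 (from 15 and 4), paralogues 0 and 2 (from 1 and 4). The higher genes of the PERK arm were then 1 (from 2) and those of the RNAs cut by IRE1 1 (from 3). Without control replicate 2, lower chaperones numbered 3 (from 6) and lower paralogues 2 (from 4). Lower degradation genes numbered 3 (from 5) without EV replicate 1 or 3 and at an adjusted p under 0.01. Mitochondrially encoded genes ranged from 1 to 5 higher (2 in the reported fit) and from 0 to 4 lower (1 in the reported fit). Higher carcinoma markers were 1 in place of 0 in 5 settings, and higher fibroblast markers 1 in place of 2 with a filter of 1 CPM.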
